A study of Homo sapiens with 10 samples.

Results

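The genes described here encode the proteasome, the protease that degrades ubiquitin-tagged proteins, together with its activators, its inhibitor and its assembly chaperones. Members were all gene symbols of the PSMA, PSMB, PSMC, PSMD, PSME, PSMF and PSMG families in the deposited tables, with PSMB8 and PSMB9 left out. That rule found 46 of 57993 symbols, and 45 of them had a scaled value of 1 or more in at least 2 libraries and were tested among 17779 genes. PSMB11, the thymus-specific catalytic subunit, was the member not tested, with values from 0 to 0.266.

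As background, the core particle is a barrel of alpha rings (PSMA genes) at the ends and beta rings (PSMB genes) inside, and PSMB5, PSMB6 and PSMB7 carry its active sites. The regulatory particle caps the barrel. Its base holds the PSMC ATPases, which unfold the substrate, and the non-ATPase PSMD subunits of base and lid bind ubiquitin and remove it. When the proteasome is inhibited, the transcription factor NFE2L1 raises most of these genes together through antioxidant response elements.

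The cells were HCT116, a human colorectal carcinoma line. There were 4 groups: KDM5A-/- cells transfected with empty vector (3 libraries), with wild-type KDM5A (3 libraries) and with mutant KDM5A (2 libraries), and parental cells transfected with empty vector (2 libraries). KDM5A is a demethylase of histone H3 lysine 4, which SMYD2 methylates according to the series title, and the labels do not name the mutation. All 10 libraries came from GFP-positive cells sorted 24 h after transfection. The knockout and parental lines were both bought, the knockout has 1 catalogue number, and per the labels its medium alone held 300 ug/mL of G418. Genotype, the line's own history and G418 therefore cannot be told apart in the comparison of parental with knockout cells. Whether replicate libraries stem from separate cultures is not stated, and the p-values therefore rest on a spread that may be technical.

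Values below are FPKM turned back from the deposited log2 scale and divided by a size factor, which is each library's median ratio to the genes' geometric means. They are called scaled values. Differences are on the scale of log2(scaled value + 1) with their standard error, and a gene is said to have risen or fallen at an adjusted p under 0.05 in limma. FPKM is a level per transcript length, so levels of different genes can be set side by side.

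The deposited values, turned back to the linear scale, sum to between 999975 and 1000008 in every library. They are thus shares of a fixed total, and the reads behind a value are unknown. The name FPKM is that of the deposited column. KDM5A stood at 12.2 to 15.3 with empty vector in knockout cells, at 13.3 and 17.7 in parental cells, at 13453 to 16237 with the wild-type plasmid and at 23346 and 22816 with the mutant plasmid. The summed level over the gene thus separates the plasmids but not the knockout from the parental line. Of 11 colorectal epithelium markers 7 were tested; EPCAM, KRT8, KRT18, KRT19, CDH1 and CDX2 were present, whereas KRT20, CDX1, VIL1, LGALS4 and CEACAM5 were at or near 0. Among markers of leukocytes, fibroblasts and endothelium, PTPRC, CD3E, COL1A2 and DCN stayed under 1 and CD68 (7.95 to 21.0) and COL1A1 (13.5 to 28.7) were detected. Protein-coding genes held 92.5% to 92.8% of 7 libraries, 90.3% of both mutant libraries and 89.6% of parental library 2. Ribosomal protein genes held 12.7% to 14.0% of the same 7 libraries, 15.6% and 16.1% of the mutant libraries and 16.2% of parental library 2.

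Mean scaled levels of the tested members ran from 0.848 for PSMA8, a testis-specific alpha subunit, to 407 for PSMD2, the large base subunit that binds ubiquitin shuttle proteins. The median member stood at 178. Beta subunits had the highest median level (311), followed by alpha subunits (232), ATPases (183.0), non-ATPase base and lid subunits (179.9) and activators with the inhibitor (171). Core assembly chaperones (median 77.5) and base assembly chaperones (68.6) were lower. PSMA8 was at 1 or more in both mutant libraries and in parental library 2, which are the libraries of lower protein-coding share.

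Within the beta rings the catalytic subunits were not equal in level. PSMB5, the chymotrypsin-like site, stood at 214, 213 and 217 with empty vector in knockout cells, PSMB6, the caspase-like site, at 280.4, 259 and 275, and PSMB7, the trypsin-like site, at 326, 305 and 319. These 3 ranges did not overlap. PSMB10, the interferon-inducible counterpart of PSMB7, was at 56.6, 48.6 and 42.9 in the same libraries, far below PSMB7 in each. PSMB8 and PSMB9, the interferon-inducible counterparts left out of the members, stood at 0.951, 1.11 and 1.10 and at 14.3, 14.6 and 12.8. Each constitutive subunit was above its interferon-inducible counterpart in every one of these libraries.

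**Figure D1:**
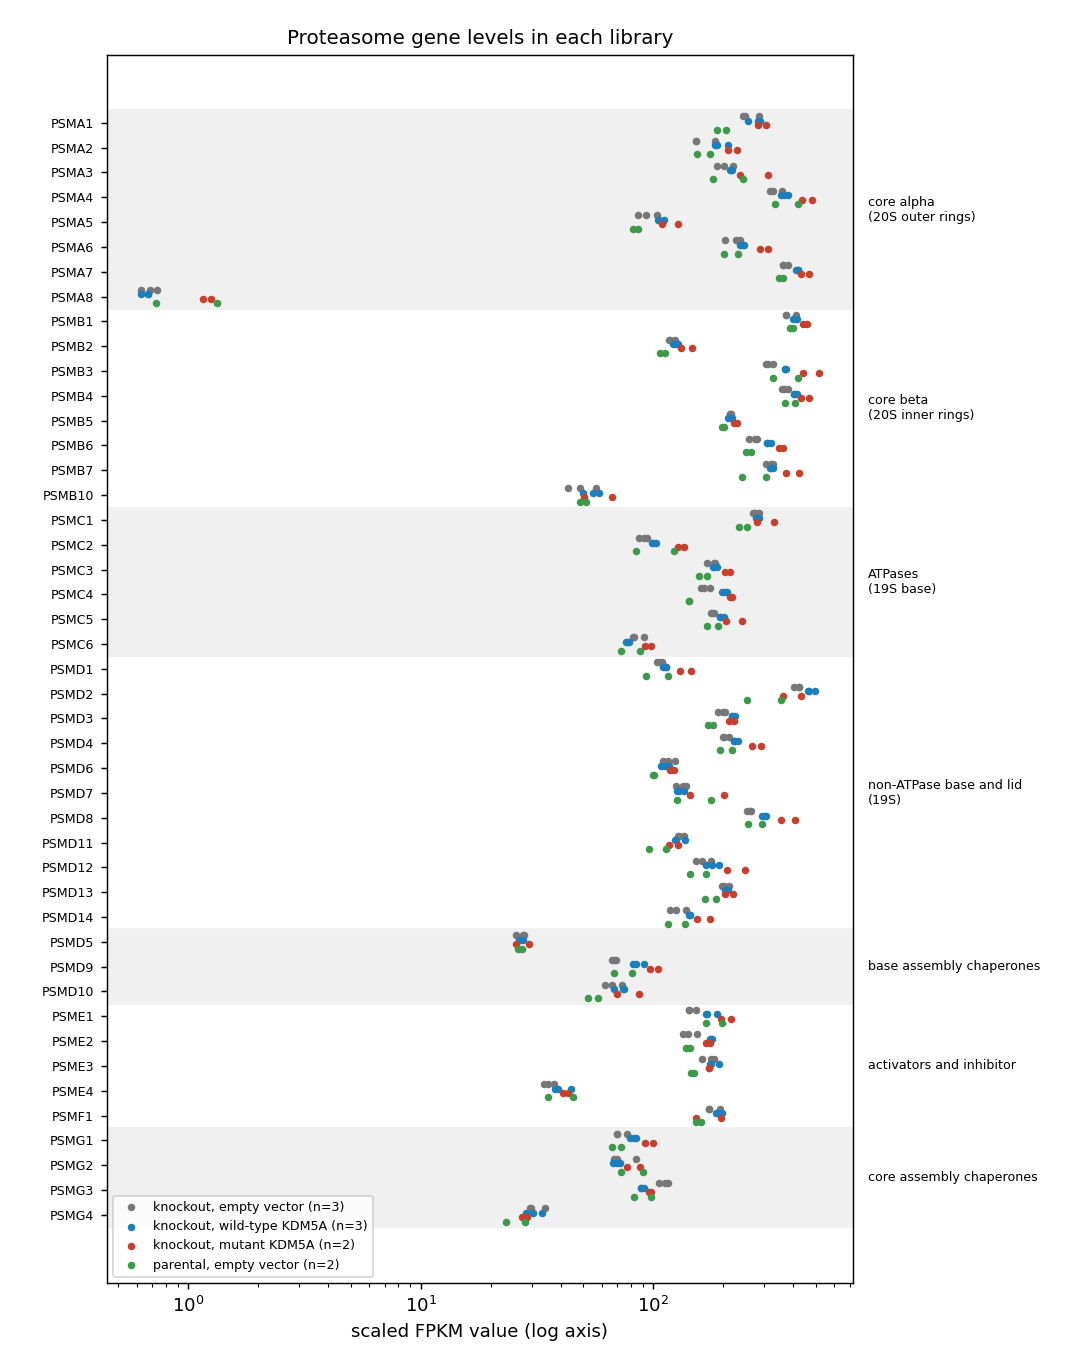
Scaled FPKM of 45 proteasome genes (log axis), 1 point per library, coloured by group and ordered by role. Most members sit between 27 and 407 with the 4 groups close together, and PSMA8 is the low exception at about 1.

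The libraries of a group differed among themselves. Of the 45 tested members, 20 were above their own mean over all libraries in empty-vector library 1 of the knockout cells, against 7 and 9 in libraries 2 and 3. In the mutant group the counts were 40 and 42, in the wild-type plasmid group 31, 25 and 30, and in the parental cells 1 and 14. Mutant library 1 held the highest value of 27 members, and parental library 1 the lowest value of 22.

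Summed over the 46 members, the scaled level was 7644 to 8141 with empty vector in knockout cells, 8514 to 8528 with wild-type KDM5A, 9213 to 9885 with mutant KDM5A and 7201 to 7854 in parental cells. The 3 knockout groups did not overlap on that scale. As a share of the deposited library the order was different: 0.838% to 0.869%, 0.843% to 0.872%, 0.803% to 0.834% and 0.757% to 0.785%. On the deposited scale the mutant libraries were thus below both other knockout groups. In per mille of protein-coding FPKM the ranges were 9.05 to 9.40, 9.09 to 9.43, 8.89 to 9.23 and 8.46 to 8.49, so the 3 knockout groups overlapped and the parental libraries were lowest. Core particle genes made up 46.3% to 47.7% of the proteasome sum with empty vector, 47.1% to 47.3% with wild-type KDM5A, 48.7% and 49.0% with mutant KDM5A, and 47.7% and 49.1% in parental cells. Regulator and core assembly genes made up 11.2% in both mutant libraries and 12% to 12.8% in the other 8. These 2 shares are taken within the members, so the factor of a library cancels from them.

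**Figure D2:**
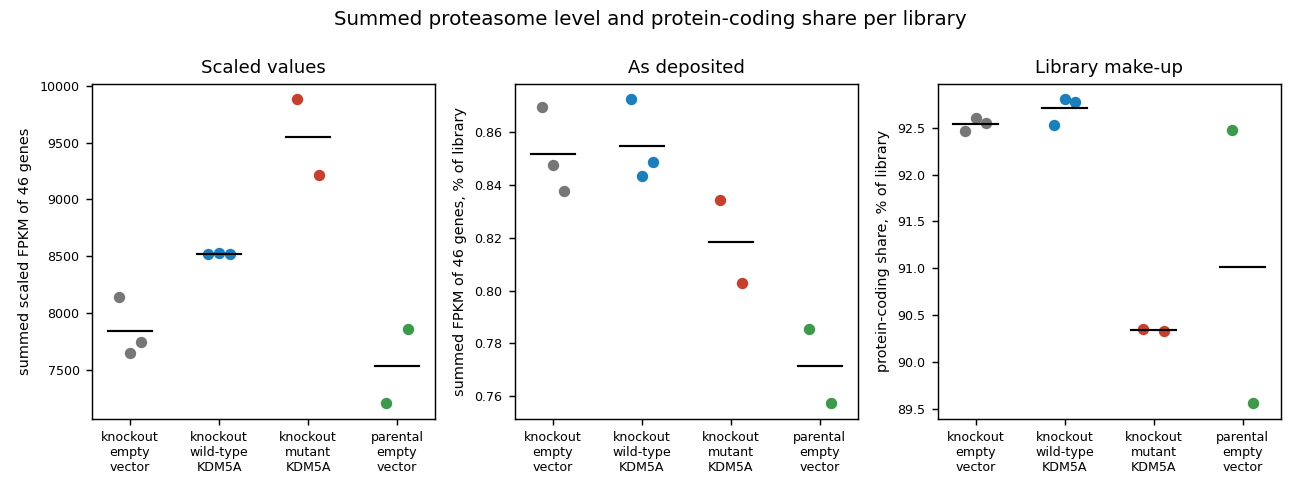
Summed level of 46 proteasome genes per library as scaled FPKM (left) and as percent of the deposited library (middle), with the protein-coding share of each library (right); points are libraries, lines are group means and the axes do not start at 0. The mutant libraries are highest on the left (9213 and 9885) and below the other knockout groups in the middle (0.803% and 0.834%).

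Promoters are shown for the members whose RNA rose with a KDM5A plasmid and whose upstream bases, outside GENCODE exons of the gene, hold the antioxidant response element TGACNNNGC. They are PSMB3, PSMD9, PSMD12 and PSME1, a choice made after their values were seen. RefSeq promoter sequences (GRCh38.p14) were found for 40 of the 46 members, with PSMA7, PSMB1, PSMB6, PSMB7, PSMD4 and PSMG3 not among them. Each is printed 5′ to 3′ on the gene's strand, ending at the start site or at the first exon base, and capitals mark TGACNNNGC and the ETS core CGGAAG on either strand.
PSMB3: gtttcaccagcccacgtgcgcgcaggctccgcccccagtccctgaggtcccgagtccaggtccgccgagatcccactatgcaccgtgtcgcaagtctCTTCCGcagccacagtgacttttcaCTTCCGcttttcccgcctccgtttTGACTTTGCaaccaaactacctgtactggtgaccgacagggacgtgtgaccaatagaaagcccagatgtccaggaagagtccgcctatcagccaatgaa
PSMD9: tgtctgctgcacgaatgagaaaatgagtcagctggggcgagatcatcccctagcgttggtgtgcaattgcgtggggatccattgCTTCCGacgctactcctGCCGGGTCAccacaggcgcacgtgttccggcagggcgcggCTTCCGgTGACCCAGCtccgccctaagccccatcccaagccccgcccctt
PSMD12: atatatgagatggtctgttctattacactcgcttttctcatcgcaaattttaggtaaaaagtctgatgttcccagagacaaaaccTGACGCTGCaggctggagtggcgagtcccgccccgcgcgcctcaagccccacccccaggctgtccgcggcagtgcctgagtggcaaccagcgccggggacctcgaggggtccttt
PSME1: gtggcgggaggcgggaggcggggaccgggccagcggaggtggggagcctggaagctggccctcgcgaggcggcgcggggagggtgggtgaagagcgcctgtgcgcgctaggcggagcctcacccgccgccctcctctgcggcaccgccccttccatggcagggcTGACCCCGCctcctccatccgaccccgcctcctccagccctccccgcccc
These stretches lie at chr17:38752491-38752735 (plus strand), chr12:121888540-121888730 (plus strand), chr17:67366628-67366827 (minus strand) and chr14:24135944-24136157 (plus strand). PSMD9 holds 2 matches to TGACNNNGC and the other three 1 each. PSMB3 and PSMD9 hold 2 matches each to CGGAAG, and no match to one motif shared a base with a match to the other.

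Over the 250 bases before the start, TGACNNNGC on either strand was found in 10 of 40 member promoters (25%), in 11% of 27305 promoters in the table and in 12.1% of 9892 promoters of tested protein-coding genes. CGGAAG was found in 20 member promoters (50%), against 16.8% and 27.5%. CCAAT was found in 17 (42.5%), against 33.0% and 35.2%, and the heat shock element core TTCNNGAA in 2 (5.0%), against 6.72% and 5.22%. Members with TGACNNNGC were PSMB3, PSMD3, PSMD5, PSMD9, PSMD12, PSME1, PSME2, PSME4, PSMG1 and PSMG2. PSMD5, with means of 27.01 with empty vector, 26.9 with wild-type and 27.5 with mutant KDM5A, holds the element, was not called in any comparison on scaled values and fell as deposited with mutant KDM5A (-0.31). A match describes letters in the window and was not tested as a binding site.

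Wild-type KDM5A was compared with empty vector in knockout cells, which asks how these genes stand 24 h after the demethylase is supplied. Of the 45 tested members 5 passed the test, where 4.54% of all genes passed. PSMB6, PSMC4, PSMD9 and PSME2 rose (2.52% of all genes rose) and PSMG3 fell (2.02% of all genes fell). The rises were between 0.20 and 0.34 on the log2 scale. The median difference over the members was 0.13, against 0.0007 over all genes and 0.072 over the 3398 genes with a mean of at least 50, a level limit chosen after the values were seen. Of these 3398 genes 7.83% rose and 2.35% fell. In bulk RNA, a change in the share of cells and a change per cell cannot be told apart.

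PSMC4, an ATPase of the base (chr19:39971005-39981441, plus strand), stood at 176, 165 and 161 with empty vector and at 202, 198 and 208 with wild-type KDM5A. All wild-type libraries were above all empty-vector libraries, and the difference was 0.28 ± 0.046 (SE) with an adjusted p of 0.0152 in limma. PSMD9, a chaperone that holds base ATPases during assembly (chr12:121888731-121918297, plus strand), moved from 68.8, 66.5 and 68.00 to 84.5, 91.02 and 82.1, again with no overlap. Its difference was 0.34 ± 0.072 (SE), adjusted p = 0.0362 in limma, the largest rise among the members in this comparison.

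PSME2 encodes the beta subunit of the interferon-inducible activator ring (chr14:24143362-24147570, minus strand). It was at 155, 134 and 140.3 with empty vector and at 177, 179 and 176 with wild-type KDM5A, a difference of 0.31 ± 0.057 (SE) with an adjusted p of 0.02 in limma. PSME1, its alpha partner in the ring, was at 153, 143 and 142 and at 188, 169 and 169.8. The libraries of PSME1 did not overlap either, but its difference of 0.26 ± 0.076 (SE) missed the threshold at an adjusted p of 0.0892 in limma. PSMB6 moved from 280.4, 259 and 275 to 308, 321 and 307, a difference of 0.20 ± 0.047 (SE) just past the threshold (adjusted p = 0.0488 in limma). The other catalytic subunits PSMB5 and PSMB7 differed by -0.0009 and 0.023, with adjusted p-values of 0.995 and 0.918 in limma.

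PSMG3 works with PSMG4 as a chaperone of alpha-ring assembly (chr7:1567330-1571005, minus strand). It went the other way, from 112, 105 and 115 to 88.7, 91.4 and 88.3, with all wild-type libraries below all empty-vector libraries. The difference was -0.30 ± 0.065 (SE) with an adjusted p of 0.0354 in limma. PSMG4 was at 29.8, 34.3 and 29.6 and at 30.4, 33.1 and 28.4, overlapping, while PSMG1, which pairs with PSMG2 at the same step, was at 76.7, 69.7 and 69.5 and at 84.2, 82.6 and 79.5 and was not called (difference 0.19 ± 0.062 (SE), adjusted p = 0.127 in limma). An antisense gene, PSMG3-AS1, overlaps PSMG3 on the other strand at 0.882 to 4.24, and whether the authors counted by strand is not given in the sources used here.

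Without overlap between libraries, 21 of 45 members were higher with wild-type KDM5A and 2 were lower (PSMC6 and PSMG3), where 16.4% and 16.2% of all genes were. Most of these 21 shifts were small. Among non-ATPase base and lid subunits 6 of 11 were higher without overlap and none was called in limma, with 3 at an unadjusted p under 0.05, where 20.5% of all genes had such a p in either direction. PSMD8, a lid subunit, was at 252, 262 and 261 and at 301, 292 and 305 (difference 0.21 ± 0.069 (SE), adjusted p = 0.122 in limma). PSMD2 was at 422, 421 and 404 and at 461, 496 and 467, also without overlap and not called (adjusted p = 0.389 in limma). Of the alpha subunits none was called in limma, 3 of 8 had an unadjusted p under 0.05, and PSMA7 came nearest, from 379.7, 361 and 360.3 to 417, 410.3 and 419.6 (difference 0.18 ± 0.048 (SE), adjusted p = 0.0708 in limma). PSMC6, an ATPase, was at 91.1, 82.4 and 81.9 and at 77.04, 78.9 and 76.5, a difference of -0.13 ± 0.075 (SE) with an adjusted p of 0.366 in limma, and it fell as deposited (-0.25).

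These calls were not firm. On the values as deposited 0 members rose and 2 fell in limma (3 and 4 at an unadjusted p under 0.05), where 0.692% of all genes rose and 3.45% fell. After quantile normalization 1 rose and 1 fell, where 1.65% and 1.80% of all genes did; PSMG3 alone was called on all 3 scales. None of the 5 calls was kept through every omission of a compared library. Without any 1 of wild-type libraries 1, 2 and 3 or empty-vector libraries 2 and 3, limma called 0 members, with 8 to 11 higher and 1 lower at an unadjusted p under 0.05.

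Mutant KDM5A was compared with the same empty-vector libraries. Here 24 of 45 members rose and none fell on the scaled values in limma, where 16.5% of all genes passed (9.48% rose and 7.05% fell). At an unadjusted p under 0.05 27 members were higher and 1 lower, where 16.8% and 15.4% of all genes were. With the values as deposited 3 members rose and 10 fell, where 2.62% of all genes rose and 34.6% fell. With quantile normalization 6 members rose and 2 fell, where 4.99% and 6.88% of all genes did. The sign of the members' differences thus depended on the scaling, which moved all genes as well. The median member difference was 0.29 on scaled values against -0.0071 over all genes. As deposited it was -0.047 against -0.30 over all genes, and with quantile normalization 0.068 against -0.026. Relative to the median of all genes the members' median was therefore higher on all 3 scales, by 0.30, 0.25 and 0.094. Genes with a mean of at least 50 had a median of 0.13 on scaled values, and 30.2% of them rose and 6.62% fell. The lower protein-coding share of both mutant libraries moved with this comparison, so share and plasmid cannot be told apart. A fit with that share as a covariate in limma called 0 members, with 15 higher and 0 lower at an unadjusted p under 0.05. Within groups the share differed mainly between the parental libraries (92.5% and 89.6%), which therefore largely set the covariate's slope. That fit thus cannot decide the part of the share in the result, which was not tested otherwise. That fit called 0.506% of all genes higher and 0.247% lower, and at the unadjusted p the shares were 9.72% and 7.58%.

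Alpha subunits had a median difference of 0.40, and 5 of 8 rose. PSMA4 was at 357, 317 and 326 with empty vector and at 483 and 434 with mutant KDM5A, PSMA6 at 236, 203 and 227 and at 311 and 286. Both were higher in each mutant library than in any empty-vector library. Their differences were 0.46 ± 0.10 (SE) and 0.43 ± 0.080 (SE), with adjusted p-values of 0.0163 and 0.0107 in limma. PSMA7, the alpha subunit of highest level, was at 379.7, 361 and 360.3 and at 469 and 431 and rose by 0.29 ± 0.053 (SE) (adjusted p = 0.00981 in limma), but the sign turned as deposited (-0.047) and with quantile normalization (-0.091). PSMA2 and PSMA5 rose by 0.43 and 0.33, and PSMA5 was at -0.0080 as deposited. PSMA3 was at 220.1, 188 and 202 and at 311 and 236; its mutant libraries were far apart and it was not called (adjusted p = 0.076 in limma). PSMA8 was at 0.735, 0.623 and 0.681 and at 1.26 and 1.16 and was not called either (adjusted p = 0.198 in limma). On the other 2 scales limma called 0 alpha subunits: their medians were 0.082 as deposited, with 0 at an unadjusted p under 0.05, and 0.17 with quantile normalization, with 2.

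Beta subunits had a median difference of 0.26, and 6 of 8 rose. PSMB3, a non-catalytic beta subunit (chr17:38752736-38764231, plus strand), stood at 327, 305 and 312 with empty vector and at 515 and 438 with mutant KDM5A. This was the largest difference of any member, 0.59 ± 0.10 (SE), adjusted p = 0.00881 in limma, and PSMB3 also rose as deposited (0.25) and with quantile normalization (0.26). Its call was lost without mutant library 1, when the difference was 0.48. The catalytic subunits differed among themselves. PSMB6 was at 348 and 361 in the mutant libraries against 280.4, 259 and 275 (0.38 ± 0.053 (SE), adjusted p = 0.00455 in limma), and PSMB7 at 422 and 373 against 326, 305 and 319 (0.32 ± 0.093 (SE), adjusted p = 0.0442 in limma). PSMB5 was at 222 and 229 against 214, 213 and 217, a difference of 0.072 ± 0.043 (SE) that was not called (adjusted p = 0.294 in limma). As deposited PSMB6 and PSMB7 were at 0.044 and -0.015 and PSMB5 fell (-0.27). PSMB1, PSMB2 and PSMB4 rose by 0.22, 0.21 and 0.29 on scaled values and were at -0.12, -0.13 and -0.047 as deposited. PSMB10 was at 50.3 and 66.5, overlapping the empty-vector libraries.

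Of the 6 ATPases 4 rose, and their median difference was 0.26. PSMC2 (chr7:103344254-103369395, plus strand) was at 90.8, 94.2 and 86.98 with empty vector and at 135 and 128 with mutant KDM5A, a difference of 0.54 ± 0.13 (SE) (adjusted p = 0.0236 in limma). Both mutant libraries were above all others, but parental library 2 was close to them at 123. PSMC2 was not called as deposited (0.20, adjusted p = 0.141 in limma) or with quantile normalization (0.41, adjusted p = 0.0532 in limma). Its call was also lost as each of the 5 compared libraries, mutant or empty-vector, was left out in turn. PSMC4 was at 219 and 214, a difference of 0.37 ± 0.052 (SE) (adjusted p = 0.00478 in limma). It was not called as deposited (0.0305) or with quantile normalization (0.13). PSMC3 and PSMC5 rose by 0.22 and 0.31 and were at -0.12 and -0.032 as deposited. PSMC1 and PSMC6 did not pass, at 329.9 and 279.5 and 97.7 and 92.1 in the mutant libraries, and PSMC1 fell as deposited (-0.20). PSMC1 has a pseudogene in the tables, PSMC1P1, at 16.8% of its level, so its reads may be split between the 2 and its value is uncertain.

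Non-ATPase subunits of the base and lid were split. Their median difference was 0.36, with 5 of 11 called higher. PSMD8 (chr19:38374536-38383824, plus strand) was at 252, 262 and 261 and at 407 and 354, a rise of 0.56 ± 0.077 (SE) (adjusted p = 0.00459 in limma) that was also called as deposited (0.21) and with quantile normalization (0.24). PSMD4, a ubiquitin receptor, was at 212, 201 and 200.2 and at 290.4 and 265 and rose by 0.44 ± 0.066 (SE) (adjusted p = 0.00585 in limma). PSMD1, a base scaffold subunit, rose from 109, 103 and 106 to 146 and 130.4. PSMD12, a lid subunit, rose from 178, 153 and 162 to 247 and 207, and PSMD14, the deubiquitinase of the lid, from 138, 118 and 125 to 175 and 154. Their differences were 0.38, 0.46 and 0.37, with adjusted p-values of 0.0212, 0.0188 and 0.0262 in limma. As deposited PSMD4, PSMD1, PSMD12 and PSMD14 were at 0.10, 0.037, 0.12 and 0.032 and were not called. With quantile normalization PSMD4 was called (0.18), and PSMD1, PSMD12 and PSMD14 were not.

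The other 6 non-ATPase subunits did not pass on scaled values. PSMD2 was at 362 and 431 against 422, 421 and 404, with its mutant libraries on either side of the empty-vector libraries. PSMD11, a lid subunit, was at 117 and 127 against 128, 135 and 128, below in both libraries, with a difference of -0.094 ± 0.081 (SE) (adjusted p = 0.461 in limma). PSMD3, PSMD6, PSMD7 and PSMD13, all of the lid, had differences of 0.13, 0.046, 0.36 and 0.058. As deposited PSMD6, PSMD11 and PSMD13 fell (-0.29, -0.43 and -0.28).

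Assembly factors moved unevenly. PSMD9 was at 96.7 and 104 with mutant KDM5A against 68.8, 66.5 and 68.00 with empty vector, 0.56 ± 0.081 (SE), adjusted p = 0.00524 in limma. It was called on all 3 scales (0.22 as deposited, 0.46 with quantile normalization) and with each compared library left out. The other base chaperones, PSMD5 and PSMD10, differed by 0.021 and 0.22 and were not called. PSMG1 rose from 76.7, 69.7 and 69.5 to 99.8 and 92.2 (0.41 ± 0.069 (SE), adjusted p = 0.00788 in limma). It was called with quantile normalization (0.31) and not as deposited (0.0735). PSMG3 was lower in both mutant libraries, at 95.3 and 97.9, than in any empty-vector library, but its difference of -0.19 ± 0.072 (SE) missed the threshold (adjusted p = 0.0998 in limma) and passed as deposited (-0.53). With quantile normalization PSMG3 was called as well (-0.32). PSMG2 and PSMG4 differed by 0.16 and -0.15 on scaled values. PSMG4 and PSMD5 fell as deposited (-0.48 and -0.31).

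Of the activators, PSME1 (chr14:24136158-24138967, plus strand) rose from 153, 143 and 142 to 216 and 195 (0.49 ± 0.085 (SE), adjusted p = 0.0084 in limma). It was called with quantile normalization (0.27) and not as deposited (0.15). PSME2 was at 169 and 175 and rose by 0.27 ± 0.064 (SE) (adjusted p = 0.0233 in limma), with -0.071 as deposited. The other activators are nuclear: PSME3 was at 173 and 173 against 163, 176 and 182 and PSME4 at 40.8 and 42.8 against 37.2, 35.1 and 33.8. PSMF1, the inhibitor, was at 196 and 153 against 174, 174 and 194. None of these 3 was called on scaled values, and PSME3 and PSMF1 fell as deposited (-0.34 and -0.40).

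**Figure D3:**
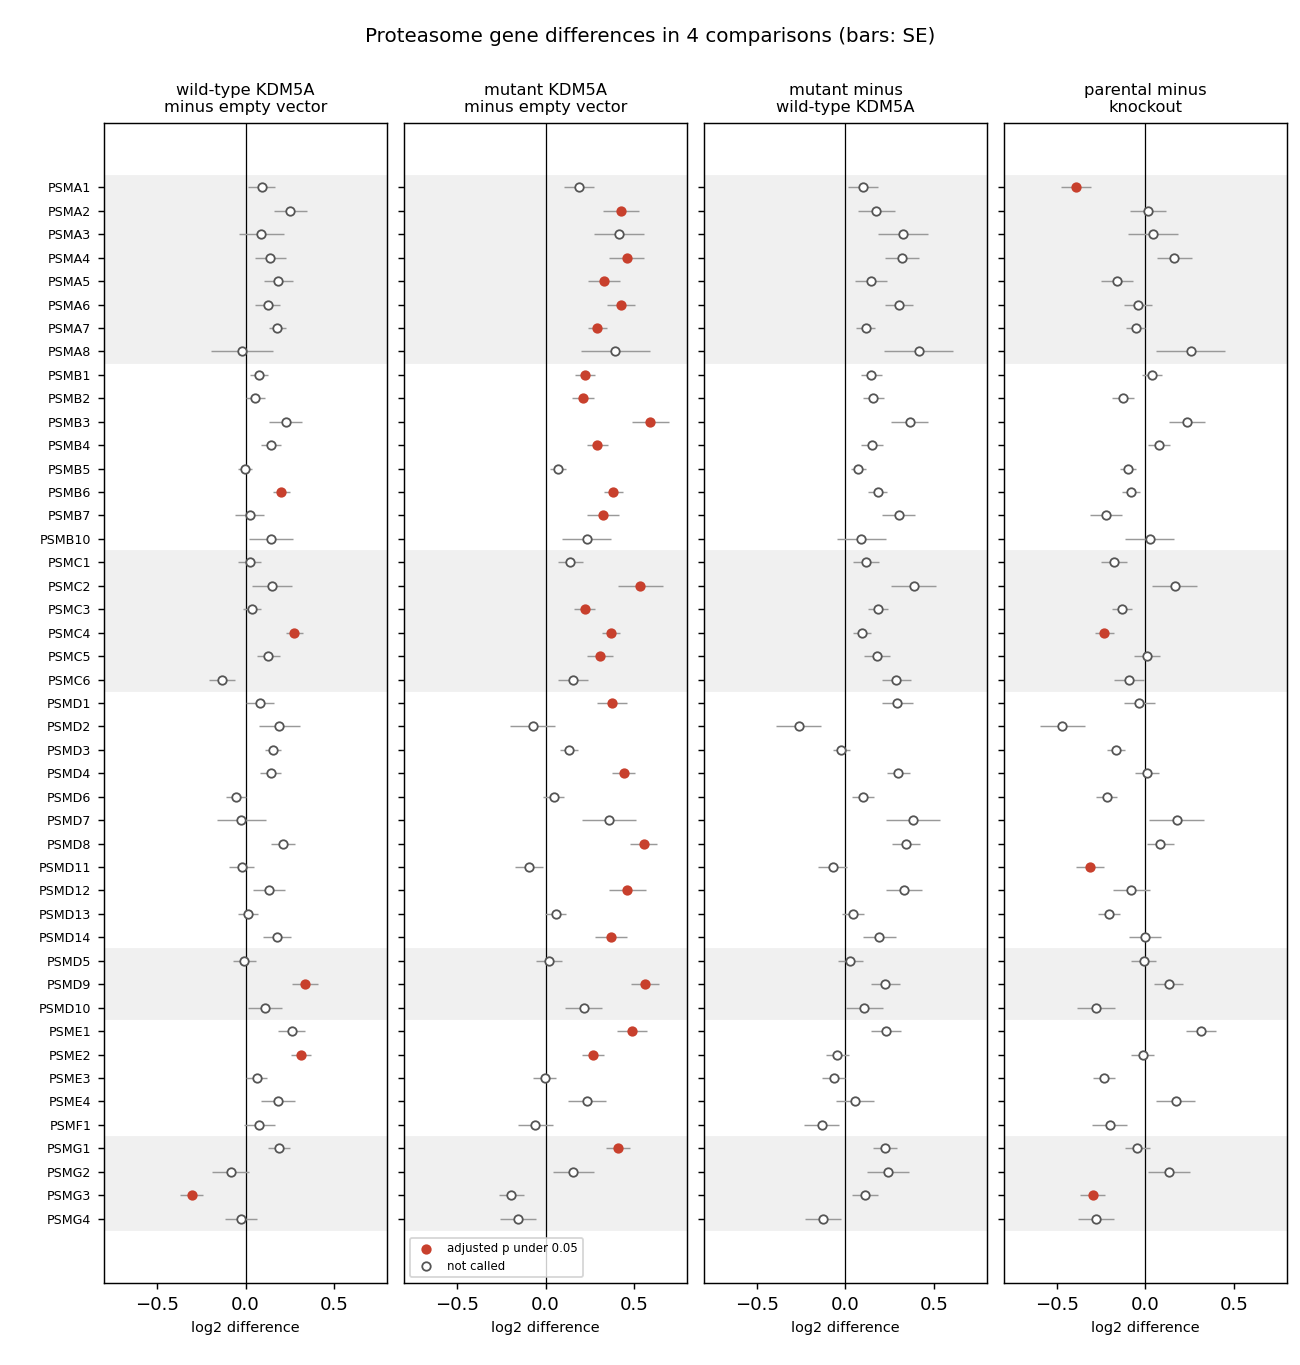
Log2 differences of 45 proteasome genes in the 4 comparisons, as points with their standard errors, filled red where the adjusted p was under 0.05 in limma. Filled points number 5, 24, 0 and 4 from left to right; in the second panel all 24 lie right of 0, with PSMB3 farthest.

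Without overlap between libraries, 31 of 45 members were higher with mutant KDM5A and 3 lower, where 23.3% and 23.6% of all genes were. Of the 24 rises, 6 were kept when each of the 5 compared libraries was left out in turn (PSMB6, PSMC4, PSMD4, PSMD8, PSMD9 and PSMG1). Where a mutant library is left out its group has 1 library, which is then assumed to vary like the other groups. Without mutant library 1 the count fell to 6, and without empty-vector library 2 or 3 to 10. On all 3 scales PSMB3, PSMD8 and PSMD9 rose.

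**Figure D4:**
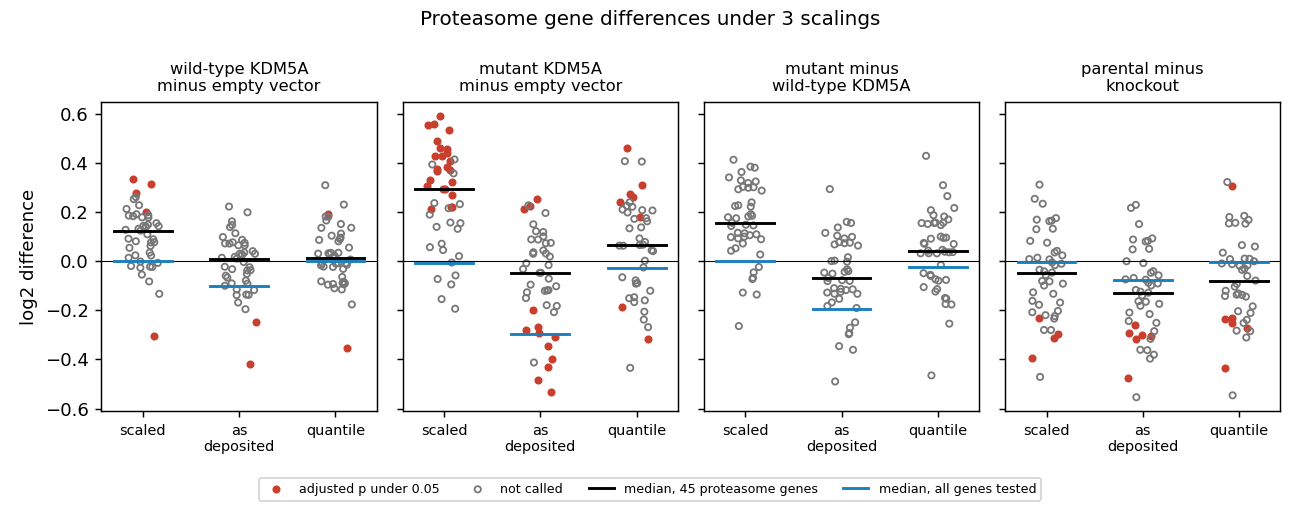
Log2 differences of the 45 members (points, red where called in limma) in each comparison on scaled, deposited and quantile-normalized values, with the median of the members (black line) and of all tested genes (blue line). For mutant KDM5A against empty vector the black line moves from 0.29 to -0.047 and 0.068, and it stays above the blue line on each scale.

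Mutant and wild-type KDM5A were compared directly, the comparison that bears on the mutation itself. In limma 0 of 45 members passed, where 0.0562% of all genes passed (0.0337% higher and 0.0225% lower). Among genes with a mean of at least 50 the share called higher was 0.0294%. At an unadjusted p under 0.05 21 members were higher with the mutant and 0 lower, where 20.2% of all genes had such a p in either direction. That direction depended on the scaling: as deposited 0 members were higher and 10 lower at that p, where 3.23% and 30.1% of all genes were. With quantile normalization 8 members were higher and 6 lower, where 7.82% and 11% of all genes were. The median member difference was 0.16 on scaled values, -0.068 as deposited against -0.19 over all genes, and 0.043 with quantile normalization. PSMD4 and PSMD8 had the smallest adjusted p among the members, 0.0927 each, with differences of 0.30 ± 0.066 (SE) and 0.34 ± 0.077 (SE). For PSMD8 the wild-type libraries were at 301, 292 and 305 and the mutant libraries at 407 and 354, without overlap. For PSMB3 they were at 368, 371 and 368 and at 515 and 438 (difference 0.36 ± 0.10 (SE), adjusted p = 0.118 in limma).

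Some members lay the other way. PSMD2 was at 461, 496 and 467 with wild-type and at 362 and 431 with mutant KDM5A, a difference of -0.26 ± 0.13 (SE) (adjusted p = 0.284 in limma). PSME2 was close in both, at 177, 179 and 176 and at 169 and 175. Libraries did not overlap for 29 members that were higher and 3 that were lower with the mutant, where 19.5% and 19.4% of all genes were. KDM5A itself was higher with the mutant plasmid (23346 and 22816) than with the wild-type plasmid (13452, 16237 and 15598), so plasmid dose and mutation cannot be told apart. With either parental library left out of the fit, which changes only the shared estimate of the spread, 9 members were called higher. In those 2 fits 3.88% and 3.87% of all genes were called higher, so the calls grew over all genes as well.

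Parental cells were compared with knockout cells, both with empty vector. PSMA1, PSMC4, PSMD11 and PSMG3 were lower in parental cells and no member was higher in limma, a total of 4 of 45 where 8.94% of all genes passed (4.09% higher, 4.84% lower). At an unadjusted p under 0.05 1 member was higher and 15 were lower, where 12.6% and 13.2% of all genes were. The share of members called, 8.89%, was near the share of all genes. Of the genes with a mean of at least 50, 5.68% were higher and 10.3% lower. The median member difference was -0.046, against -0.0027 over all genes. PSMA1, an alpha subunit (chr11:14504874-14643635, minus strand), was at 187 and 204 in parental and at 284, 243 and 247 in knockout cells, a difference of -0.39 ± 0.085 (SE) (adjusted p = 0.0245 in limma). PSMC4 was at 142 and 142 against 176, 165 and 161 (-0.23 ± 0.052 (SE), adjusted p = 0.0267 in limma). In both genes the parental libraries were below every knockout library.

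PSMD11 was at 114 and 96.01 in parental and at 128, 135 and 128 in knockout cells (-0.31 ± 0.081 (SE), adjusted p = 0.0444 in limma). PSMG3 was at 97.3 and 82.8 against 112, 105 and 115 (-0.30 ± 0.072 (SE), adjusted p = 0.0361 in limma). For both, parental library 2, one of the libraries of lower protein-coding share, was the lower of the pair, and neither was called without it or without any 1 of the knockout libraries. PSMD2 had the largest difference, -0.47 ± 0.13 (SE), with parental libraries at 354 and 253 far apart, and was not called (adjusted p = 0.0527 in limma). PSME1 was the member nearest to a rise, at 168 and 197 against 153, 143 and 142 (0.31 ± 0.085 (SE), adjusted p = 0.053 in limma).

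Libraries did not overlap for 18 members that were lower and 1 that was higher in parental cells, where 21.9% and 20.6% of all genes were. PSMA1 and PSMC4 kept their calls as deposited and with quantile normalization. On those scales 6 and 5 members were lower, where 5.47% and 5.12% of all genes were. As deposited 0 members were higher and with quantile normalization 1 was, where 2.1% and 4.27% of all genes were. That member was PSME1 (0.31, adjusted p = 0.026 in limma). None of the 4 calls was kept through every omission of a compared library. A single remaining parental library is assumed to vary like the other groups. Without parental library 1 the fit called 4 members higher and 3 lower, without parental library 2 it called 1, and without any 1 of the 3 knockout libraries 1.

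Both plasmid comparisons and that of the parental cells share the 3 empty-vector libraries, so their values are set side by side and not correlated. PSMC4 differed by 0.28 with wild-type KDM5A, 0.37 with mutant KDM5A and -0.23 in parental cells. PSMG3 differed by -0.30, -0.19 and -0.30, and PSMD9 by 0.34, 0.56 and 0.13. In PSMG3 the empty-vector libraries were therefore the highest of all 4 groups, at 112, 105 and 115.

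Other genes of the pathway were taken from lists by function. Of 11 proteasome partners outside the family names, 1 rose with wild-type KDM5A (ADRM1), where 2.52% of all genes did. With mutant KDM5A 3 rose (ADRM1, POMP and TXNL1), where 9.48% of all genes did. In parental cells 1 was lower (PITHD1), where 4.84% of all genes were. Of genes with a mean of at least 50 the shares were 7.83%, 30.2% and 10.3%, so the partners were near the rate of such genes. ADRM1, a ubiquitin receptor of the base, was at 221, 222 and 213 with empty vector, 264, 271 and 270.0 with wild-type and 298 and 288 with mutant KDM5A. Its differences were 0.30 ± 0.045 (SE) and 0.42 ± 0.050 (SE), with adjusted p-values of 0.0108 and 0.0024 in limma. POMP, the chaperone on which beta rings are built, was at 117, 107 and 107, 119, 127 and 129.5 and 187 and 176, with parental libraries at 106 and 146. Its rise with mutant KDM5A was 0.72 ± 0.12 (SE) (adjusted p = 0.00704 in limma), larger in value than that of any member. TXNL1, a thioredoxin-like protein bound to the lid, rose by 0.36. POMP was called on all 3 scales, whereas ADRM1 and TXNL1 were not called as deposited with mutant KDM5A (0.082 and 0.023).

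Of the ubiquitin genes and activating enzymes, UBB and UBA1 are described here. UBB, a gene that encodes a chain of ubiquitins, was at 1988, 1915 and 1962 with empty vector and at 3162 and 2758 with mutant KDM5A. Both mutant libraries were above every empty-vector library, and UBB rose by 0.59 ± 0.11 (SE) (adjusted p = 0.00929 in limma). It was called as deposited (0.25) and not with quantile normalization (0.012). Parental library 2 was above parental library 1 for UBB (1953 and 2539). UBA1, the main activating enzyme, rose by 0.16 on scaled values and was at -0.18 as deposited.

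Of 11 tested shuttle and VCP unfoldase genes, RAD23B rose with mutant KDM5A by 0.16 and UBQLN2 fell. Over all genes 9.48% rose and 7.05% fell. RAD23B fell as deposited (-0.18) and was at -0.036 with quantile normalization, so its direction depended on the scaling. UBQLN2, a shuttle that carries ubiquitinated proteins to the proteasome, was at 18.01, 18.2 and 17.6 with empty vector and at 12.8 and 12.9 with mutant KDM5A (-0.45 ± 0.084 (SE), adjusted p = 0.0104 in limma), and it kept its call on all 3 scales and as each compared library was left out. NPLOC4, a cofactor of VCP, was lower in parental cells, at 132 and 111 against 149, 151 and 153 (-0.32, adjusted p = 0.0297 in limma). Its call was kept with quantile normalization (-0.34) and lost as deposited (-0.40, adjusted p = 0.0552 in limma). It was also lost without any 1 of the knockout empty-vector libraries.

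NFE2L1, the transcription factor of proteasome recovery, was at 138, 143 and 152 with empty vector, 159.9, 162 and 165 with wild-type and 158 and 162 with mutant KDM5A. Its libraries did not overlap with the empty-vector libraries in either case, and neither difference passed (0.17 and 0.15, adjusted p = 0.0748 and 0.0802 in limma). Of 7 genes in its list, MAFF was called. Over all genes 4.54% passed with wild-type KDM5A, 16.5% with mutant KDM5A and 8.94% in parental cells. MAFF, a small Maf protein that pairs with such factors on the element, was at 69.2, 70.6 and 68.05, 115, 114 and 117 and 118 and 125, and at 58.9 and 51.7 in parental cells. Its differences were 0.73 ± 0.056 (SE), 0.80 ± 0.063 (SE) and -0.32 ± 0.063 (SE), with adjusted p-values of 0.000382, 0.000387 and 0.0162 in limma. All 3 calls of MAFF were kept as deposited and with quantile normalization. The call in parental cells was lost without empty-vector library 2 of the knockout cells and without parental library 2 (difference -0.23). It was also lost with the protein-coding share as a covariate (-0.23, adjusted p = 0.0896 in limma). MAFG and MAFK, the other small Maf genes, were not called in any comparison on scaled values in limma, and MAFG fell as deposited with mutant KDM5A (-0.64).

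Interferon-inducible catalytic subunits did not pass the test. PSMB9 was at 14.3, 14.6 and 12.8 with empty vector, 15.2, 15.96 and 11.8 with wild-type and 18.6 and 17.6 with mutant KDM5A, and its smallest adjusted p in limma over the 4 comparisons was 0.118. PSMB8 and PSMB10 were not called in any comparison in limma, while PSME1 and PSME2, which are also interferon-inducible, were called as given above.

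Among epithelial markers EPCAM, KRT8, KRT18 and KRT19 rose with mutant KDM5A as well, by 0.31, 0.40, 0.36 and 0.35, which is 4 of 7 tested markers. Over all genes 9.48% rose, and of those with a mean of at least 50 30.2% rose. The rises of these markers depended on the scaling as well, and none was called as deposited or with quantile normalization (adjusted p-values of 0.0553 to 0.92 in limma). EPCAM was at -0.027 as deposited and at 0.013 with quantile normalization. KRT8, KRT18 and KRT19 were at 0.056, 0.021 and 0.0115 as deposited and at -0.15, -0.15 and -0.22 with quantile normalization. CD14, a monocyte marker, was at 1.88, 1.28 and 1.17 with empty vector, 4.79, 4.11 and 3.87 with wild-type and 4.05 and 6.41 with mutant KDM5A and rose in both, while PTPRC was at most 0.706 and CD3E at most 0.00747. CD68, a macrophage marker, was at 13.3, 13.5 and 13.2 with empty vector, 20.97, 16.6 and 20.2 with wild-type and 19.4 and 16.4 with mutant KDM5A and 10.3 and 7.95 in parental cells. It missed the threshold with wild-type KDM5A (0.49, adjusted p = 0.0521 in limma) and was called lower in parental cells (-0.51). COL1A1, a fibroblast collagen, was at 20.2, 23.1 and 28.7 with empty vector and 13.5 and 15.01 with mutant KDM5A and fell there (-0.70), while DCN was at most 0.0144. The part of any such cell in the proteasome values was not tested.

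Some members share their ground with other genes. The smaller of 2 PSMA1 loci overlaps COPB1 on the same strand (97.6 to 132 over libraries). PSMA6 overlaps KIAA0391 and PSMD9 overlaps WDR66 (1.91 to 6.09, highest in mutant library 1), also on the same strand. PSME1, PSME2 and PSMC5 overlap EMC9, RNF31 and FTSJ3 on the other strand. PSMC2 and PSMA2 overlap DNAJC2 (44.7 to 62.0) and MRPL32 (46.5 to 72.8), also on the other strand. Reads of these pairs may have been assigned to either. PSMC2 holds a short annotated locus, CTA-276O3.4, whose value was 0 in 4 libraries (mutant 1, wild-type 3 and both parental ones) and 161 in another. PSMA2 has 2 loci as well, and the loci were summed; the smaller locus of PSMA1 and of PSMA2 was at most 5.79 and 7.76. Taking the larger locus alone gave the same counts of calls. Pseudogenes of 12 members were listed under 31 symbols, of which 5 were tested. Over the 45 members, the Spearman correlation of the mutant difference with exonic length was -0.202, and after a correction for length over all genes it was 0.014 and 21 members rose; genes are not independent, so no p is given.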

How the data were processed

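The data are RNA levels in 10 HCT116 libraries, which fall into 4 groups. Per the submitters' processing notes, the tools were Cufflinks 2.2.1, STAR 2.7.1a, GATK 4.1.2 and Picard, on build GRCh38; the order of tools, the annotation release and the strand setting are not given in the sources used here. The authors deposited 1 table per library with log2 FPKM values for 60141 loci, and the values show that 1 was added before the log. The depth behind a value is unknown, so no counting precision is given. Linear values were summed per symbol and divided by a median-ratio factor from the 13651 genes at 1 or more in every library. Genes at a scaled value of 1 or more in at least 2 libraries were tested (17779) with limma 3.58.1 in R 4.3.3 on log2(scaled value + 1), all libraries in 1 fit with a trend, 6 residual and 2.99 prior degrees of freedom, two-sided, with Benjamini-Hochberg adjustment over all genes of a comparison. Gene positions are those of the tables with 1 added to each start, since all 46 starts were 1 below those of GENCODE release 29. Loci were matched to GENCODE for gene type and length (94.0%). Tables were read with Python 3.11.15, pandas 2.3.3 and numpy 2.4.6, figures were drawn with matplotlib 3.10.9, and the test was checked on simulated data.

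The members and the gene lists were chosen with earlier results of these data known. Values are given for each role's members of smallest p, the catalytic and interferon-inducible subunits, the highest and lowest member of each role, and pathway genes of smallest p; other members are named after their values were seen. Alternatives were other scalings, pseudocounts, filters and fits, and each library left out. SEM1, ECPAS and UFD1 appear in the tables as SHFM1, KIAA0368 and UFD1L. Some genes of the lists are not reported here.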

Additional observations from a re-analysis of the deposited data

How the results depend on the processing

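Groups held 2 or 3 libraries and the values come without counts, and the sign of several genes turned with the scaling. Counts below pool rises and falls, and the share of all genes called moved with the setting. For wild-type KDM5A 6.24% of all genes rose and 5.58% fell with array weights, and 0.88% and 0.625% with no filter. For parental cells 6.31% were higher and 8.25% lower with a filter at a mean of 5, and 2.61% and 3.25% with array weights. For wild-type KDM5A against empty vector, the 5 members called in limma became 2 as deposited, 2 with quantile normalization, 2 with no filter, 13 with array weights, 12 with a fit of only the libraries compared, 12 without both mutant libraries and parental library 2, and 8 at an adjusted p under 0.1. Leaving out 1 library gave 0 to 6. For mutant KDM5A against empty vector, the 24 became 13 as deposited, 8 with quantile normalization, 12 with no filter, 15 with only the libraries compared and 0 with the protein-coding share as a covariate, and 6 to 26 with 1 library left out. For mutant against wild-type KDM5A, the 0 became 1 with only the libraries compared and 2 at an adjusted p under 0.1, and 0 to 9 with 1 library left out, the 9 without either parental library. For parental against knockout cells, the 4 became 1 with no filter, 8 with a filter at a mean of 5, 0 with array weights and 0 with only the libraries compared (15 and 13 at an unadjusted p under 0.05), 8 with protein-coding genes only, 1 with the protein-coding share as a covariate, 7 with a correction for length and 10 at an adjusted p under 0.1, and 1 to 7 with 1 library left out.

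No pairing by replicate number was seen: correlations of deviations between same-numbered libraries ran from -0.089 to 0.051, and not every library correlated best with its own number. In a group of 2 libraries the deviations mirror each other, so this check cannot settle whether same-numbered libraries were handled together. With the replicate number as a block the counts in limma were 0, 10, 0 and 0, with 11, 25, 14 and 12 members at an unadjusted p under 0.05.

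The median member difference with wild-type KDM5A, 0.13, moved to 0.011 as deposited and 0.015 with quantile normalization, and lay between 0.074 and 0.15 with 1 library left out. With mutant KDM5A, 0.29 moved to -0.047 as deposited, 0.068 with quantile normalization and 0.15 with the protein-coding share as a covariate. For mutant against wild-type KDM5A, 0.16 moved to -0.068 as deposited, 0.043 with quantile normalization and 0.050 with the covariate. For parental against knockout cells, -0.046 became 0.016 without parental library 1 and -0.12 without parental library 2.

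Members and pathway genes called with mutant KDM5A whose sign turned as deposited were PSMA5 (-0.0080), PSMA7 (-0.047), PSMB1 (-0.12), PSMB2 (-0.13), PSMB4 (-0.047), PSMB7 (-0.015), PSMC3 (-0.12), PSMC5 (-0.032), PSME2 (-0.071), RAD23B (-0.18) and UBA1 (-0.18). With quantile normalization the sign turned for PSMA7 (-0.091), PSMB1 (-0.16), PSMB4 (-0.089), PSMC3 (-0.025), RAD23B (-0.036) and UBA1 (-0.076). The cause was not tested. The largest locus per symbol was tried after seeing the data and changed no count. For single genes, other settings turned the sign of a gene called on scaled values in the 17 cases above. They kept the side of the threshold in 3554, lost a call in 173 and gained one in 112. With a library left out these were 2586, 162 and 81. Sign turns of genes not called on scaled values are not among the 17, so the kept and gained cases include some. PSMA1 (0.19 and -0.15 as deposited) and PSMC1 (0.14 and -0.20) with mutant KDM5A are examples.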
